A study of Mus musculus with 24 samples.

Results

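The genes described here were 10 imprinted growth genes, Igf2, H19, Dlk1, Meg3, Peg3, Mest, Plagl1, Cdkn1c, Grb10 and Ndn, out of 17729 genes with a tested probe. They were chosen by name, with earlier results of these data known. Counts of them set beside all probes are therefore no independent test. The gene probes that carry these names in the scanner files numbered 26, of which 25 were tested, and each gene was read from its probe with the highest mean signal over all arrays. Total RNA of efferent nerve fibres (EN, the ventral root) and afferent nerve fibres (AN, the dorsal root) of L4-L6 in C57BL/6 mice was hybridized to 24 single-colour Agilent arrays. Each root was taken at P0 (the day of birth), 1 week (1W), 3 weeks (3W) and 5 weeks (5W), which gives 8 groups of 3 arrays, and the labels name no treatment or altered gene. Per the study, several animals, males and females, were used at each age, with fibres collected into tubes that correspond to the 8 groups. Its methods name 3 independent experiments per group and do not say how the animals were divided among them. The p-values measure the spread between the 3 arrays of a group, shared over all groups, whether or not these arrays come from separate animals.

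An imprinted gene is expressed mainly from the copy inherited from one parent, because DNA methylation laid down in the egg or the sperm sets the parental copies apart. Many imprinted genes act on growth before and shortly after birth. As a rule, the paternally expressed ones, such as Igf2, promote growth, and the maternally expressed ones, such as H19, Cdkn1c and Grb10, restrain it. Several lie side by side and share a control region, as Igf2 and H19 do, and Dlk1 and Meg3. Many of them are abundant in fetal tissues and are known to decline after birth in several organs. The arrays measured RNA of both parental copies together, so nothing here bears on which copy was expressed.

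Some of the 10 also hold microRNA genes, whose mature sequences are given because they are further products of the same imprinted genes. They are from RefSeq (GRCm38.p6), with the seed (bases 2 to 8) in capitals. The hosts are H19 for miR-675, Igf2 for miR-483, Mest for miR-335 and Meg3 for miR-770. The arrays did not measure the microRNAs themselves.
mmu-miR-675-5p: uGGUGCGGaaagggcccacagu
mmu-miR-675-3p: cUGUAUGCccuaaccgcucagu
mmu-miR-483-5p: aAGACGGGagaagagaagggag
mmu-miR-483-3p: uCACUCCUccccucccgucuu
mmu-miR-335-5p: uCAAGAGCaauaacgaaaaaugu
mmu-miR-335-3p: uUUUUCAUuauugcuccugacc
mmu-miR-770-5p: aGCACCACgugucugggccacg
mmu-miR-770-3p: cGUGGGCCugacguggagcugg
No seed was shared between them.

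RefSeq promoter windows were at hand for 8 of the 10 genes (15 windows on GRCm38.p6). The 250 bases before the start site are shown for 1 window each of Igf2, Mest, Plagl1 and Peg3, paternally expressed genes whose brightest probes fell with age. Each CpG is in capitals, as imprints are carried by CpG methylation. Methylation was not measured, and whether any CpG of these windows carries an imprint was not analysed.
Igf2 (chr7:142657497-142657746, minus strand): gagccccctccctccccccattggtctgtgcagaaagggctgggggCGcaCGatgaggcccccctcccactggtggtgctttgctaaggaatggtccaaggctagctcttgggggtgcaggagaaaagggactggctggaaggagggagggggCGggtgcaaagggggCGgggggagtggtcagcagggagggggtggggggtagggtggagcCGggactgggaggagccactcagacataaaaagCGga
Mest (chr6:30737800-30738049, plus strand): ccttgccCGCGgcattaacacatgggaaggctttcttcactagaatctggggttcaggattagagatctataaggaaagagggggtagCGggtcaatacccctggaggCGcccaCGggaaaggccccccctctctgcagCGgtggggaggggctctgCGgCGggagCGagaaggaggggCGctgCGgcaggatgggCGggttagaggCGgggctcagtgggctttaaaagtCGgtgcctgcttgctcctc
Plagl1 (chr10:13090582-13090831, plus strand): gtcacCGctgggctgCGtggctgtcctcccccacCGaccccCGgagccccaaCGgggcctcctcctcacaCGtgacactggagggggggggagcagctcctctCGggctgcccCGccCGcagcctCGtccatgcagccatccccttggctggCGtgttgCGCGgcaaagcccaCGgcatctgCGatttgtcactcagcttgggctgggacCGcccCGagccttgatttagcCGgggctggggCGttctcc
Peg3 (chr7:6730420-6730669, minus strand): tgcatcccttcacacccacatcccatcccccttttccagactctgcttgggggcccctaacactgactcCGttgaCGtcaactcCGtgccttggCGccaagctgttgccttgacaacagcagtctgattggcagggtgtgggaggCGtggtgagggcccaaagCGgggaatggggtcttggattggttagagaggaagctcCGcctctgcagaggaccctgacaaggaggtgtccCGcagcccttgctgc
The CpG number was 6 in the Igf2 window, equal to the median of all 32851 windows, 14 in the Mest window, 19 in the Plagl1 window and 8 in the Peg3 window. The other Igf2 windows held 1, 10 and 22. Fewer CpGs were found in 49.6% of all windows for Igf2, 70.6% for Mest, 80.3% for Plagl1 and 57.0% for Peg3. The motif GGGGCCCC, reported for binding by the Plagl1 protein and identical on both strands, was found once in the Peg3 window and in no other window of the 10 genes. It was present in 0.89% of all windows.

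The brightest probes lie, by the files' own annotation (mm9), as follows. Several share a region of chromosome 7, with H19 at chr7:149761492-149761551, Igf2 at chr7:149837115-149837174 and Cdkn1c at chr7:150644297-150644356 near its end, all on the minus strand. Peg3 (chr7:6657078-6657137, minus strand) and Ndn (chr7:69494749-69494808, plus strand) lie elsewhere on that chromosome. Dlk1 (chr12:110698721-110698781) and Meg3 (chr12:110783470-110783529) are neighbours on the plus strand of chromosome 12. Mest was read at chr6:30697385-30697444 and Plagl1 at chr10:12850832-12850891, both on the plus strand, and Grb10 at chr11:11833165-11833224 on the minus strand. Exon positions were not analysed here.

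On their brightest probes, all 10 genes were high at birth and fell with age in both roots. For Plagl1 the other tested probes were not called lower at 5W in either root. At 5W, every one of the 10 was called lower than at P0 in EN and in AN, where a call means an adjusted p below 0.05 and a fold change above 2 in limma. Of all tested probes, 14.5% were called lower at 5W in EN and 12.7% in AN, and 15.4% and 15.2% higher. The median log2 difference of the 10 genes was -2.47 in EN and -3.06 in AN, beside 0.04 and 0.03 over all tested probes. The 10 brightest probes were well above background on all 24 arrays, so that each fold is measured on both sides. In bulk tissue, fewer cells of a type and less RNA per cell cannot be told apart.

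**Figure D1:**
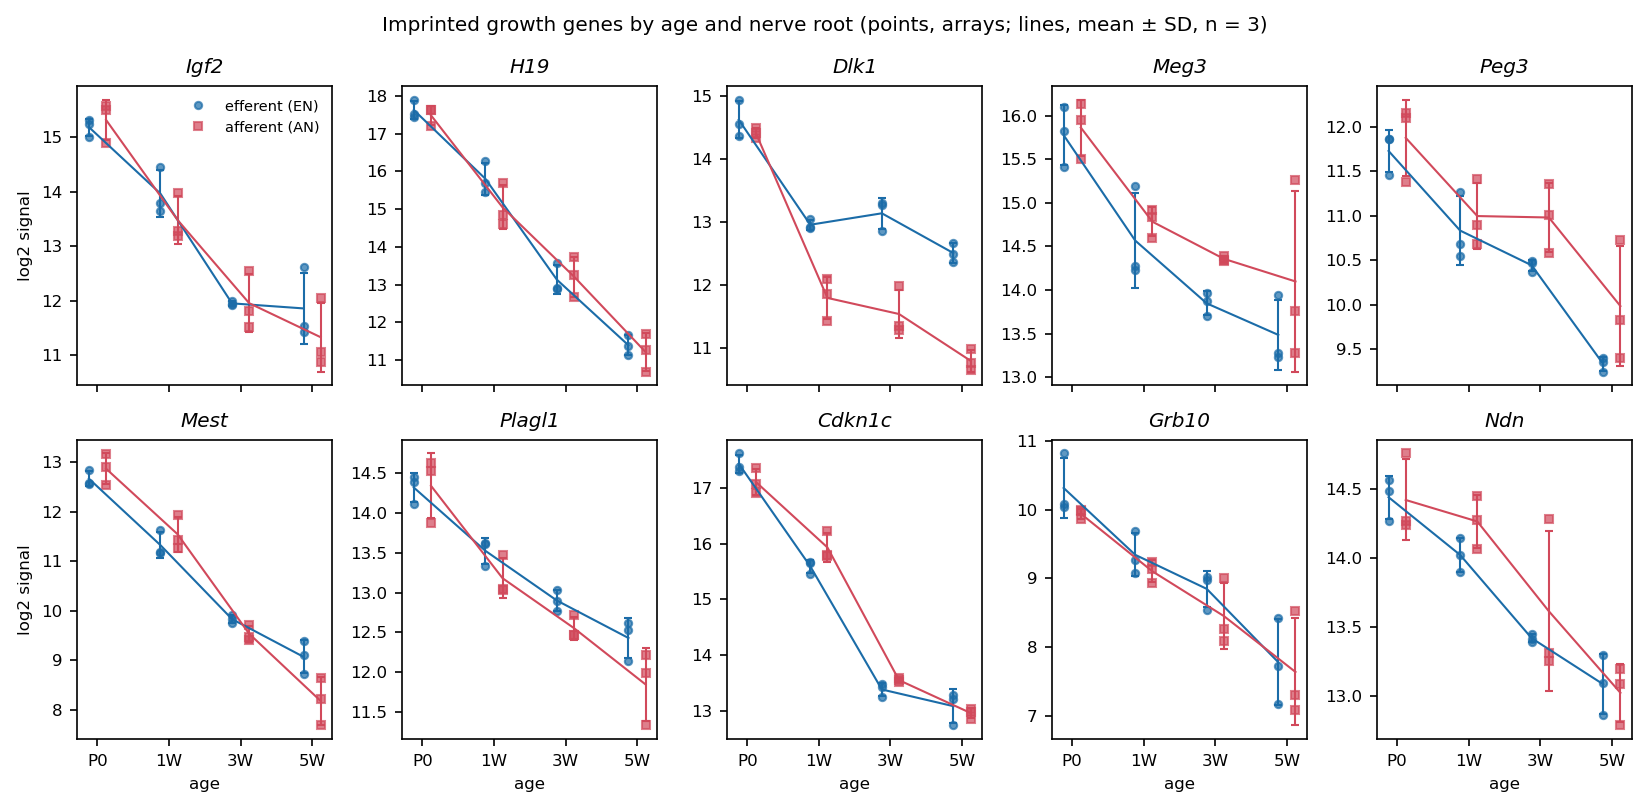
Log2 signal of the brightest probe of each of the 10 genes (vertical axis, a separate scale per panel) against age (horizontal axis) in EN (circles) and AN (squares). Points are arrays and lines join group means with SD (n = 3). All 10 genes are lower at 5W than at P0 in both roots, and Dlk1 alone shows widely separated roots from 1W on.

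H19 fell most. This non-coding RNA, made from the maternal copy beside Igf2, had log2 signals of 17.45, 17.90 and 17.53 in EN at P0. The values were 15.45, 15.68 and 16.28 at 1W, 12.92, 13.58 and 12.89 at 3W, and 11.38, 11.67 and 11.13 at 5W. In AN they were 17.20, 17.63 and 17.64 at P0, 14.60, 14.85 and 15.70 at 1W, 13.25, 12.66 and 13.72 at 3W, and 11.68, 11.26 and 10.69 at 5W. The arrays of each age lay below those of every earlier age in both roots. From P0 to 5W, H19 fell 75.3-fold in EN (log2 -6.23, SE 0.33, adjusted p = 3.64e-11) and 77.5-fold in AN (log2 -6.28, SE 0.33, adjusted p = 2.936e-11), by limma. A second H19 probe fell by 7.29 in EN and by 7.31 in AN on the log2 scale.

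Igf2, the growth factor that signals through the Igf1 and insulin receptors, fell on its brightest probe between birth and 3W, with no call thereafter. In EN its log2 signals were 15.02, 15.31 and 15.24 at P0, 13.65, 13.79 and 14.46 at 1W, 11.92, 12 and 11.94 at 3W, and 11.54, 12.62 and 11.43 at 5W. In AN they were 14.89, 15.50 and 15.58 at P0, 13.29, 13.18 and 13.98 at 1W, 11.81, 11.52 and 12.54 at 3W, and 11.06, 12.06 and 10.88 at 5W. The arrays of P0, 1W and 3W did not overlap in either root, and those of 3W and 5W overlapped in both. Against P0 the log2 difference at 5W was -3.33 in EN (SE 0.35, adjusted p = 2.975e-07, limma) and -3.99 in AN (SE 0.35, adjusted p = 2.851e-08, limma). Between 3W and 5W it was -0.09 in EN (adjusted p = 0.9248, limma) and -0.63 in AN (adjusted p = 0.3557, limma). The second Igf2 probe fell by 2.87 in EN and by 3.80 in AN from P0 to 5W and was called in both. Its course between differed, with log2 differences from 1W to 3W of -0.41 in EN and 0.03 in AN. From 3W to 5W they were -0.73 and -1.32, and none of these steps was called.

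Mest, a hydrolase-like protein of mesodermal tissue made from the paternal copy, fell further in AN than any other member apart from H19. Its P0 signals were 12.58, 12.57 and 12.85 in EN, beside 12.55, 12.89 and 13.17 in AN, and its 5W signals were 9.11, 8.72 and 9.38 in EN, beside 8.22, 7.69 and 8.64 in AN. The 2 ages were far apart, and at 5W the AN arrays lay below the EN arrays. The log2 difference from P0 to 5W was -3.60 in EN (SE 0.23, adjusted p = 5.088e-10, limma) and -4.69 in AN (SE 0.23, adjusted p = 1.76e-11, limma). At 5W, AN was lower than EN by a log2 difference of -0.89 (adjusted p = 0.02619, limma), which is under the 2-fold limit of a call. The AN minus EN difference changed by -1.09 from P0 to 5W, not called here but called with AN and EN of the same age and number as a pair (adjusted p = 0.03678, limma). A second Mest probe gave -3.12 in EN and -3.71 in AN from P0 to 5W. On that probe the roots overlapped at 5W, with an AN minus EN difference of -0.30 (adjusted p = 0.5117, limma). The change of this difference since P0 was -0.58 and not called (adjusted p = 0.5793, limma). Another Mest probe was above background on 9 arrays, and a last one on none.

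Plagl1, a zinc finger transcription factor that binds other imprinted genes, differed between its probes. Its brightest probe had signals of 14.12, 14.45 and 14.40 in EN, beside 13.88, 14.52 and 14.63 in AN at P0, and of 12.14, 12.53 and 12.62 in EN, beside 11.33, 12.22 and 11.98 in AN at 5W. This probe was lower at 5W by 1.89 in EN and by 2.50 in AN, with no overlap of arrays. The second probe, also above background on all 24 arrays, had log2 differences of 0.26 in EN (adjusted p = 0.3259, limma) and 0.18 in AN (adjusted p = 0.5277, limma). The last, a dim probe further upstream that was above background on 13 arrays and on none in EN at P0, was brighter in EN at 5W than at P0 (adjusted p = 0.002562, limma) with no fold that can be given. The fall of Plagl1 was seen on 1 of its 3 probes.

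Cdkn1c, an inhibitor of cyclin-dependent kinases made from the maternal copy, fell in EN to 15.46, 15.65 and 15.66 at 1W and 13.25, 13.42 and 13.47 at 3W, from 17.31, 17.37 and 17.62 at P0. In AN its signals were 17.07, 16.90 and 17.35 at P0, 15.79, 15.77 and 16.23 at 1W, and 13.51, 13.58 and 13.56 at 3W. At 5W they were 12.74, 13.29 and 13.22 in EN, beside 12.86, 13.04 and 12.98 in AN. Most of the fall was over by 3W, at which age it was 16.6-fold in EN and 11.8-fold in AN. The log2 difference from P0 to 5W was -4.35 in EN (SE 0.16, adjusted p = 8.706e-13, limma) and -4.14 in AN (SE 0.16, adjusted p = 1.382e-12, limma). Cdkn1c had 1 probe on the array.

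Grb10, an adaptor that dampens insulin and Igf1 receptor signalling, was called on its brightest probe at 3W and 5W in both roots. Its signals fell in EN from 10.08, 10.82 and 10.04 at P0 to 7.73, 7.18 and 8.43 at 5W, and in AN from 9.99, 9.97 and 9.86 to 7.31, 7.08 and 8.53. The log2 difference was -2.54 in EN (SE 0.35, adjusted p = 7.217e-06, limma) and -2.30 in AN (SE 0.35, adjusted p = 2.305e-05, limma). Its other probes, each above background on all 24 arrays, fell as well from P0 to 5W, by 1.81 and 1.44 in EN and by 1.94 and 1.26 in AN. At 3W neither was called in EN (-0.98 and -0.95, under 2-fold). In AN at 3W the first was called (-1.07) and the other was not (-0.30, adjusted p = 0.4644, limma).

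Peg3, a zinc finger protein made from the paternal copy, was called lower at 3W and 5W in EN and at 5W alone in AN. Its signals were 11.45, 11.87 and 11.87 in EN, beside 11.38, 12.15 and 12.10 in AN at P0. At 3W they were 10.37, 10.49 and 10.47 in EN, beside 10.58, 11.01 and 11.35 in AN, and at 5W 9.24, 9.40 and 9.35 in EN, beside 9.40, 10.73 and 9.82 in AN. The log2 difference from P0 was -0.90 at 3W (under 2-fold, adjusted p = 0.01732, limma) and -1.89 at 5W in AN, and -1.29 and -2.40 in EN. A second probe was called lower in AN at 3W too (-1.79, adjusted p = 0.0002016, limma).

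Ndn, or necdin, a growth-restraining protein of neurons and other postmitotic cells, changed least. Its P0 signals were 14.27, 14.56 and 14.49 in EN, beside 14.26, 14.76 and 14.23 in AN. Its 5W signals were 13.09, 12.86 and 13.29 in EN, beside 13.08, 13.19 and 12.78 in AN. All 5W arrays lay below all P0 arrays, at a log2 difference of -1.36 in EN (SE 0.22, adjusted p = 3.952e-05, limma) and -1.40 in AN (SE 0.22, adjusted p = 3.067e-05, limma). Ndn had 1 probe on the array.

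At 1W, the members called lower than P0 in EN were Igf2, H19, Dlk1, Meg3, Mest and Cdkn1c, 6 of 10 beside 5.67% of all tested probes. In AN they were these 6 and Plagl1, 7 of 10 beside 3.62%. At 3W all 10 were called lower in EN (14.4% of all probes) and 8 in AN (12.8%), the exceptions being Peg3 and Ndn. Left out one at a time, the arrays moved the EN count at 1W between 4 and 8 and the AN count between 6 and 8. AN array 3 of 3W had a mean log2 signal of 12.51 over 9 sensory neuron markers, against 8.97 and 8.69 on the others of that group. Without it, all 10 were called in AN at 3W.

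**Figure D2:**
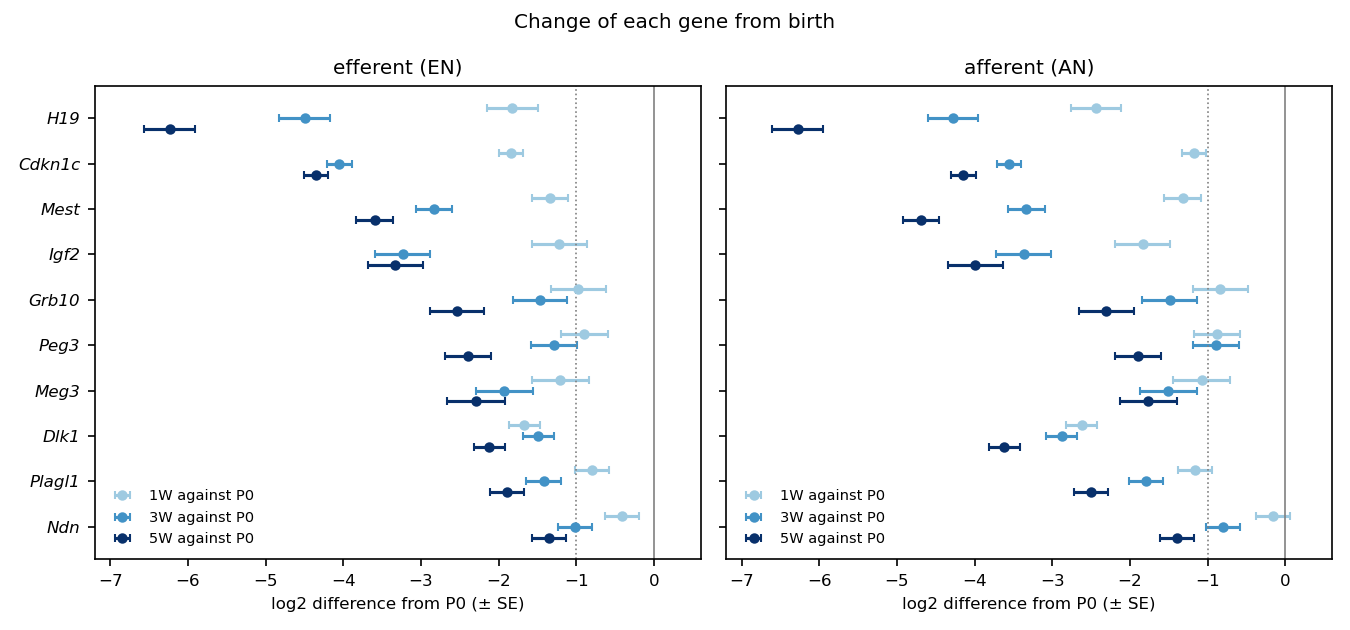
Log2 difference from P0 (horizontal axis) of each gene at 1W, 3W and 5W (light to dark) with its standard error, in EN (left) and AN (right). The dotted line marks a 2-fold fall. H19 reached -6.23 in EN and -6.28 in AN at 5W, and Ndn reached -1.36 and -1.40.

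Between 1W and 3W the members called lower were Igf2, H19, Mest and Cdkn1c in both roots. These 4 of 10 stood beside 6.03% of all tested probes called lower in EN and 6.37% in AN. H19 fell 6.38-fold in EN and 3.58-fold in AN over that step, and Cdkn1c 4.63-fold and 5.21-fold. Between 3W and 5W, when 0.417% of all probes were called lower in EN and 0.632% in AN, the only member called in EN was H19 (log2 -1.74, adjusted p = 0.008033, limma). In AN it was H19 (-2.0, adjusted p = 0.002079) and Mest (-1.36, adjusted p = 0.003158), by limma. With 1W in place of P0 as the start, 8 of 10 members were called lower at 5W in EN (all but Dlk1 and Ndn) and 8 of 10 in AN (all but Dlk1 and Meg3).

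The slides of the arrays hold several groups each. Within the slide that holds arrays of both P0 and 5W, the members differed between these ages by log2 values of -1.66 for Ndn to -6.05 for H19 in EN. In AN on the same slide they differed by -0.78 for Meg3 to -6.37 for H19. P0 and 3W never shared a slide, and neither did 1W and 3W, so that no within-slide value can be given for the falls to 3W.

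Dlk1 was the only member called different between the roots. It codes for a transmembrane protein with EGF repeats, related to the Notch ligands and known for holding precursor cells undifferentiated, and it is made from the paternal copy. In EN its log2 signals were 14.57, 14.95 and 14.36 at P0, 12.90, 13.04 and 12.92 at 1W, 12.85, 13.26 and 13.30 at 3W, and 12.36, 12.48 and 12.67 at 5W. In AN they were 14.33, 14.49 and 14.42 at P0, 11.43, 11.86 and 12.09 at 1W, 11.28, 11.98 and 11.34 at 3W, and 10.64, 10.98 and 10.75 at 5W. The roots overlapped at P0, and every AN array lay below every EN array at 1W, 3W and 5W.

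At P0 no member was called between the roots, where 0.255% of all probes were called lower in AN and 0.0714% higher. AN was 2.24-fold lower than EN in Dlk1 at 1W (log2 -1.16, SE 0.20, adjusted p = 0.003854, limma), where 0.371% of all probes were called lower. It was 3.04-fold lower at 3W (log2 -1.60, SE 0.20, adjusted p = 8.858e-05, limma; 0.882%) and 3.28-fold lower at 5W (log2 -1.71, SE 0.20, adjusted p = 3.871e-05, limma; 0.821%). No gene of the 10 was called higher in AN on its brightest probe, beside 2.41%, 2.23% and 2.49% of all probes at the 3 ages.

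With AN and EN of the same age and number as a pair, the value at 5W was not called (adjusted p = 0.05796, limma), as then no probe of the array was. Without AN array 1 of 1W, the difference at 1W was -0.98 and under the 2-fold limit. On each slide that held both roots, AN was the lower, by log2 values of -1.47, -1.19 and -0.84 at 1W and of -1.72, -1.50 and -1.92 at 5W. All arrays of 3W were on 1 slide. The second Dlk1 probe gave -1.25, -1.66 and -1.74 at the 3 ages, each called. Endoneurial fibroblast markers averaged 12.55 to 12.74 in AN and 12.87 to 13.10 in EN at 5W, with 1 of 10 called lower in AN. The mean log2 signal of 8 markers of central nervous system glia lay, over the arrays of a group, at 8.52 to 9.10 in AN and 8.65 to 9.43 in EN at P0, at 10.28 to 10.74 and 8.43 to 9.93 at 1W, at 10.40 to 10.53 and 9.69 to 9.99 at 3W, and at 10.15 to 11.35 and 9.45 to 9.89 at 5W, so that it was higher on all AN arrays than on all EN arrays from 1W on. Of these 8, AN was called higher for 4 at 1W, 0 at 3W and 3 at 5W. Of 9 sensory neuron markers, AN was called higher for 7 at 1W, 2 at 3W and 1 at 5W. The part of all these marker lists in the Dlk1 values was not tested.

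The difference between the roots itself changed after birth. The AN minus EN value of Dlk1 moved by -0.95 from P0 to 1W (adjusted p = 0.2749, limma), by -1.39 from P0 to 3W (adjusted p = 0.03017, limma) and by -1.50 from P0 to 5W (adjusted p = 0.01324, limma). The share of all tested probes called with a change in this direction was 0.0412% at 1W, with 0.239% for 3W and 0.316% for 5W. The change at 3W was not called with the roots as pairs (adjusted p = 0.06817, limma), nor in 8 of the 24 fits with 1 array left out (arrays 2 and 3 of AN at P0, 1 and 3 of EN at P0, 1 and 3 of AN at 3W, 2 and 3 of EN at 3W), at adjusted p up to 0.09757 by limma. Dlk1 fell 3.18-fold in EN and 6.15-fold in AN during the first week. In EN it then stayed level to 3W, with a log2 difference of 0.18 (adjusted p = 0.5341, limma).

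**Figure D3:**
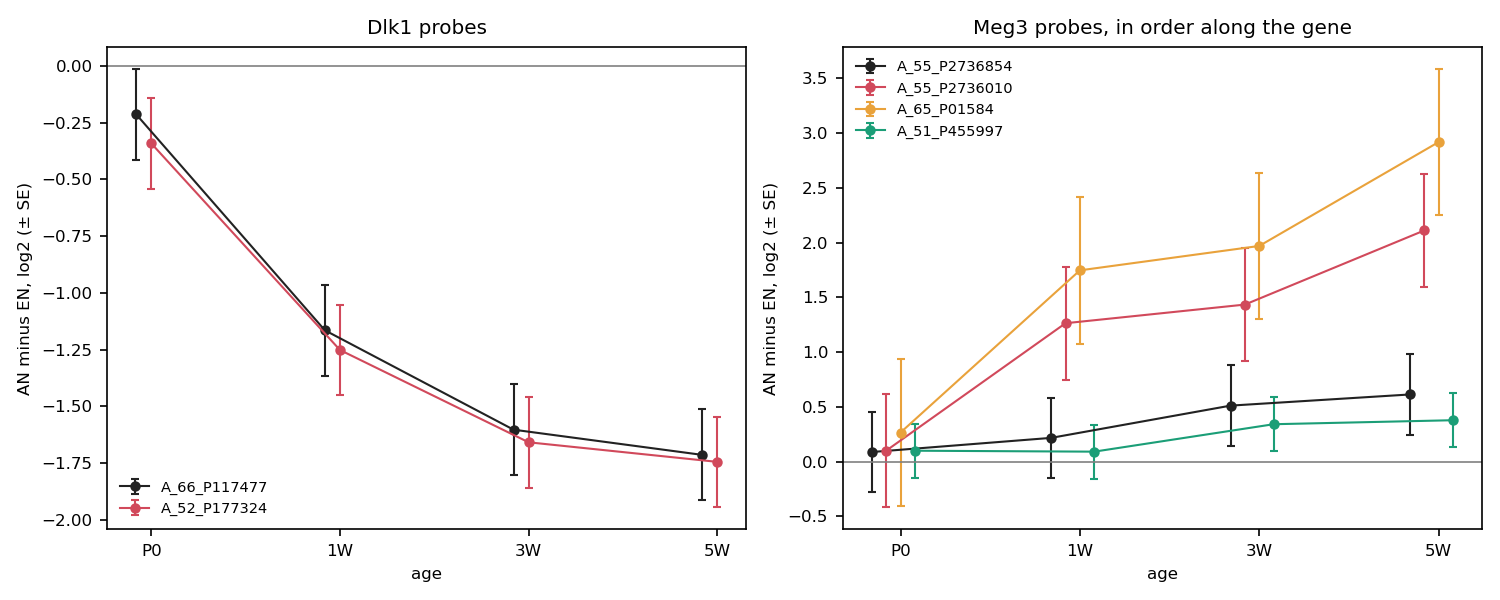
AN minus EN difference in log2 units (vertical axis, ± SE from limma) at each age (horizontal axis) for the probes of Dlk1 (left) and 4 of the 5 tested probes of Meg3 (right, in their order along the gene). Both Dlk1 probes run from near 0 at P0 to -1.71 and -1.74 at 5W, and a pair of the Meg3 probes drawn reaches 2.11 and 2.92 while the others drawn reach at most 0.61.

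Meg3, the maternally expressed non-coding RNA beside Dlk1, had 5 tested probes, of which 4 are described here, and these 4 did not move alike. Their sequences are given, all on the plus strand of chromosome 12 and in order along the gene, because 2 of those described were called between the roots, A_55_P2736010 and A_65_P01584.
A_55_P2736854: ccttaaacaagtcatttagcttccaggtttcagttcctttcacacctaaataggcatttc
A_55_P2736010: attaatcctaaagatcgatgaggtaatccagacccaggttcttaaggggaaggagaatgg
A_65_P01584: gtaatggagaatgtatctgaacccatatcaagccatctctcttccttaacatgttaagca
A_51_P455997: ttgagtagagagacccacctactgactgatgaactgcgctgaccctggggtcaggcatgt
By the files' own annotation (mm9) the probes lie at chr12:110783470-110783529, chr12:110799833-110799892, chr12:110806386-110806445 and chr12:110809678-110809737. A_55_P2736854 is the brightest and stands for the gene in the other results. Its 60 bases were also found, by their letters, in the RefSeq promoter window of the second annotated Meg3 start site, ending 78 bases before that start.

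The brightest Meg3 probe had signals of 15.41, 16.10 and 15.82 in EN at P0, 14.23, 14.27 and 15.20 at 1W, 13.70, 13.87 and 13.97 at 3W, and 13.28, 13.95 and 13.23 at 5W. In AN it had 15.51, 16.13 and 15.95 at P0, 14.84, 14.59 and 14.91 at 1W, 14.39, 14.34 and 14.34 at 3W, and 13.76, 15.26 and 13.27 at 5W. AN array 2 of 5W stood above the other AN arrays of that age by over 1 log2 unit. The log2 difference from P0 to 5W was -2.29 in EN (SE 0.37, adjusted p = 3.889e-05, limma) and -1.76 in AN (SE 0.37, adjusted p = 0.0005684, limma).

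The probes called between the roots lie further along the gene. A_55_P2736010 had 14.62, 14.67 and 14.35 in EN, beside 14.98, 14.72 and 14.24 in AN at P0. At 5W it had 10.73, 11.27 and 10.65 in EN, beside 13.14, 14.30 and 11.55 in AN, with no overlap. AN was higher than EN at 5W by a log2 difference of 2.11 (adjusted p = 0.01744, limma), after 1.43 at 3W (adjusted p = 0.1173, limma) and 1.26 at 1W (adjusted p = 0.2473, limma).

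A_65_P01584 had 11.95, 12.40 and 11.88 in EN, beside 12.35, 12.54 and 12.13 in AN at P0, and at 5W 7.74, 8.97 and 8.23 in EN, beside 11.18, 13 and 9.51 in AN. Its AN minus EN difference was 2.92 at 5W (adjusted p = 0.01152, limma), 1.97 at 3W (adjusted p = 0.0938, limma) and 1.75 at 1W (adjusted p = 0.201, limma). From P0 to 5W this probe fell by 3.76 in EN, whereas in AN its log2 difference was -1.11 and not called (adjusted p = 0.1767, limma).

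Both calls between the roots at 5W were lost without AN array 2 of 5W, at log2 differences of 1.46 (adjusted p = 0.1109) and 2.03 (adjusted p = 0.07542), by limma. They were lost too without EN array 1 of 5W (adjusted p = 0.05395 and adjusted p = 0.05006, limma), and that of A_55_P2736010 without AN array 1 or EN array 3. They were also lost with the roots as pairs, at adjusted p = 0.09254 and adjusted p = 0.08745 by limma. At 5W the mean log2 signal of 9 sensory neuron markers ranged from 7.25 to 10.03 over the AN arrays and from 7.21 to 7.81 over the EN arrays, and the part of these markers in the Meg3 values was not tested. The change of AN minus EN from P0 to 5W was not called for either probe (2.01 and 2.65). For A_55_P2736854 and A_51_P455997 the AN minus EN difference at 5W was 0.61 and 0.38, neither called.

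The course of the members was alike over the 8 group means, which share the decline with age. The highest Pearson correlation was 0.984, between Igf2 and Cdkn1c, and that of the neighbours Igf2 and H19 was 0.977. The lowest was 0.617, between Dlk1 and Peg3, and the neighbours Dlk1 and Meg3 had 0.665. Among 17719 other genes, the 5 whose group means followed Igf2 most closely were Zbed3 (0.998), Lrrc59 (0.996), Atrip (0.994), Raet1e (0.994) and E130308A19Rik (0.994). Those for Meg3 were Osbpl6 (0.995), Ttll4 (0.994), Gas1 (0.994), U2af1 (0.994) and Gldc (0.994).

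Of other genes known to be imprinted, 21 of 25 listed paternally expressed genes and 21 of 24 listed maternally expressed genes were tested. In EN at 5W, 13 of the 21 paternally expressed genes were called lower and 3 higher (Sgce by 1.01, Zrsr1 by 1.11, and Dio3 at least 1.21-fold as it was not above background at P0), with a median of -1.39. In AN 9 were lower and 1 higher, with a median of -0.90. The largest differences in EN were those of Zdbf2, at least 11.1-fold lower as it was not above background in EN at 5W (adjusted p = 1.438e-10, limma), Nnat (-4.29), Peg12 (-3.54), Magel2 (-3.38) and Slc38a4 (-3.12), an amino acid transporter. Peg12, Magel2 and Mkrn3 (-2.25) lie in the same imprinted region as Ndn, where Snrpn (-0.64) was not called. Those neighbours, like Mirg, Dcn, Igf1r and Igfbp5 named further on, were picked out after their values were seen.

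The maternally expressed genes moved both ways. In EN at 5W, 6 of 21 were lower and 4 higher with a median of 0.10, and in AN 7 were lower and 4 higher with a median of -0.14. Slc22a2, an organic cation transporter, rose by a log2 difference of 4.95 in EN and 4.11 in AN, and Osbpl5, a lipid transfer protein from the region of Cdkn1c, rose by 2.71 and 2.65. Zim1, the neighbour of Peg3, was at least 2.76-fold lower in EN and at least 3.41-fold lower in AN, with no 5W array above background. Klf14, beside Mest, was at least 2.10-fold lower in EN on the same ground. Rian, a non-coding RNA of the Dlk1 and Meg3 region, had log2 differences of -2.95 in EN and -2.06 in AN, and Mirg of that region -2.17 and -1.26. Dcn, which codes for the matrix proteoglycan decorin and is also a fibroblast marker, rose by 1.51 and 1.26.

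Between the roots, the neuronal gene Nap1l5 was higher in AN at 1W, 3W and 5W (2.78, 2.47 and 2.28), and Zdbf2 at 3W (1.30). At 5W Zdbf2 was called higher in AN too (adjusted p = 0.0001076, limma). As it was not above background in EN at 5W, its fold can only be given as at least 1.798. Slc22a2 was lower in AN at 1W, 3W and 5W (-1.31, -1.26 and -1.20). No other gene of these 42 was called between the roots at any age.

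**Figure D4:**
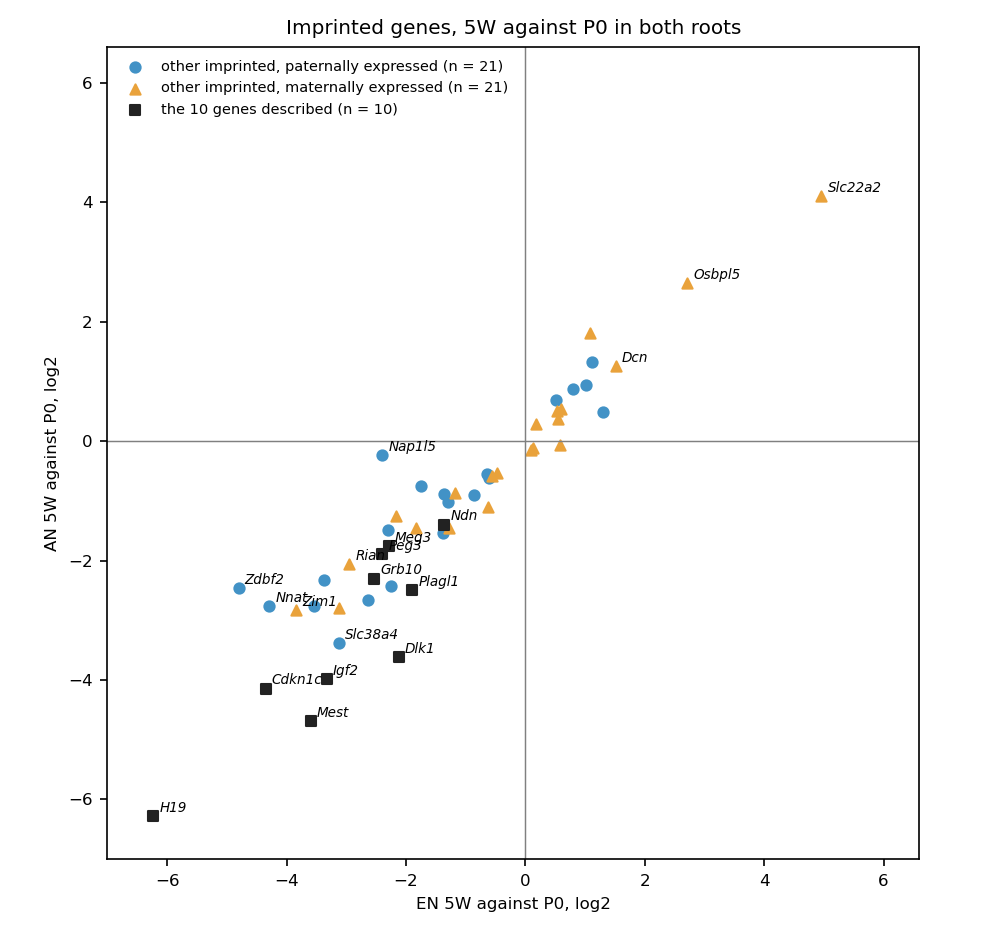
Log2 difference from P0 to 5W in EN (horizontal axis) and AN (vertical axis) for the 10 genes described (squares), 21 other paternally expressed genes (circles) and 21 other maternally expressed genes (triangles). The 10 genes all lie below 0 on both axes, and Slc22a2 and Osbpl5 lie furthest above 0.

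Among 10 genes that receive or modify the Igf2 signal, the RNA-binding proteins named for binding Igf2 mRNA were called lower at 5W in both roots. The log2 difference from P0 was -4.63 in EN and -4.44 in AN for Igf2bp3, -3.22 and -2.39 for Igf2bp2, and -2.43 and -3.04 for Igf2bp1. It was -2.82 and -3.03 for Igfbp2, a secreted binding protein. These 4 were the genes of the list called in EN at 5W, all lower. In AN, Igf2r, the receptor that clears Igf2 and itself a maternally expressed gene of the list above, was also called lower (-1.11), and Irs1, a substrate of the receptor kinases, was called higher (1.00). Igf1r, the main signalling receptor, was not called (-0.27 in EN, -0.36 in AN). Igfbp5 was lower in AN than in EN at 1W (-1.50).

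The RNA of other tissues moved with the same ages. All 10 markers of dividing cells were called lower at 3W and 5W in both roots, with medians of -3.72 in EN and -4.36 in AN at 5W. Of 10 endoneurial fibroblast markers, 4 were lower and 1 higher in EN at 5W (median -0.59), and 5 were lower in AN (median -1.06). Of 10 Schwann cell markers, 3 were higher and 1 lower in EN, and 6 were higher in AN. The collagen gene Col1a1 was well above background on all 24 arrays.

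Skeletal muscle markers were at a mean log2 signal of 11.41 to 13.08 in EN and 9.89 to 11.72 in AN at P0. They were at 8.27 to 9.16 and 7.19 to 8.88 at 1W, and at 9.14 to 10.05 and 8.88 to 12.38 at 3W. At 5W they were at 8.29 to 9.85 and 7.71 to 11.33, so that the arrays of P0 and 5W overlapped in AN. Of the muscle markers, 9 of 12 were below P0 at 5W in EN and 5 of 12 in AN. Cartilage and bone markers were at 9.39 to 10.06 in EN and 9.33 to 10.14 in AN at P0, and at 7.32 to 7.91 and 6.55 to 7.29 at 5W, with 6 of 8 called lower in EN and 5 of 8 in AN.

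Sensory neuron markers at P0 were as high in EN (10.52 to 10.87) as in AN (10.27 to 11.82), and none of 9 was called between the roots. In EN they dropped to 6.93 to 8.39 at 1W, where 7 of 9 were called lower. Sensory neuron RNA was therefore not absent under the EN label at birth, and each comparison with P0 in EN includes this step. In AN these markers were at 11.15 to 11.45 at 1W, 8.69 to 12.51 at 3W and 7.25 to 10.03 at 5W. All AN arrays of 5W thus lay below those of P0 on this list, so that the comparison of these ages in AN includes a step too. The part of muscle, cartilage, sensory neuron and dividing cell RNA in the fall of the 10 genes was not tested.

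**Figure D5:**
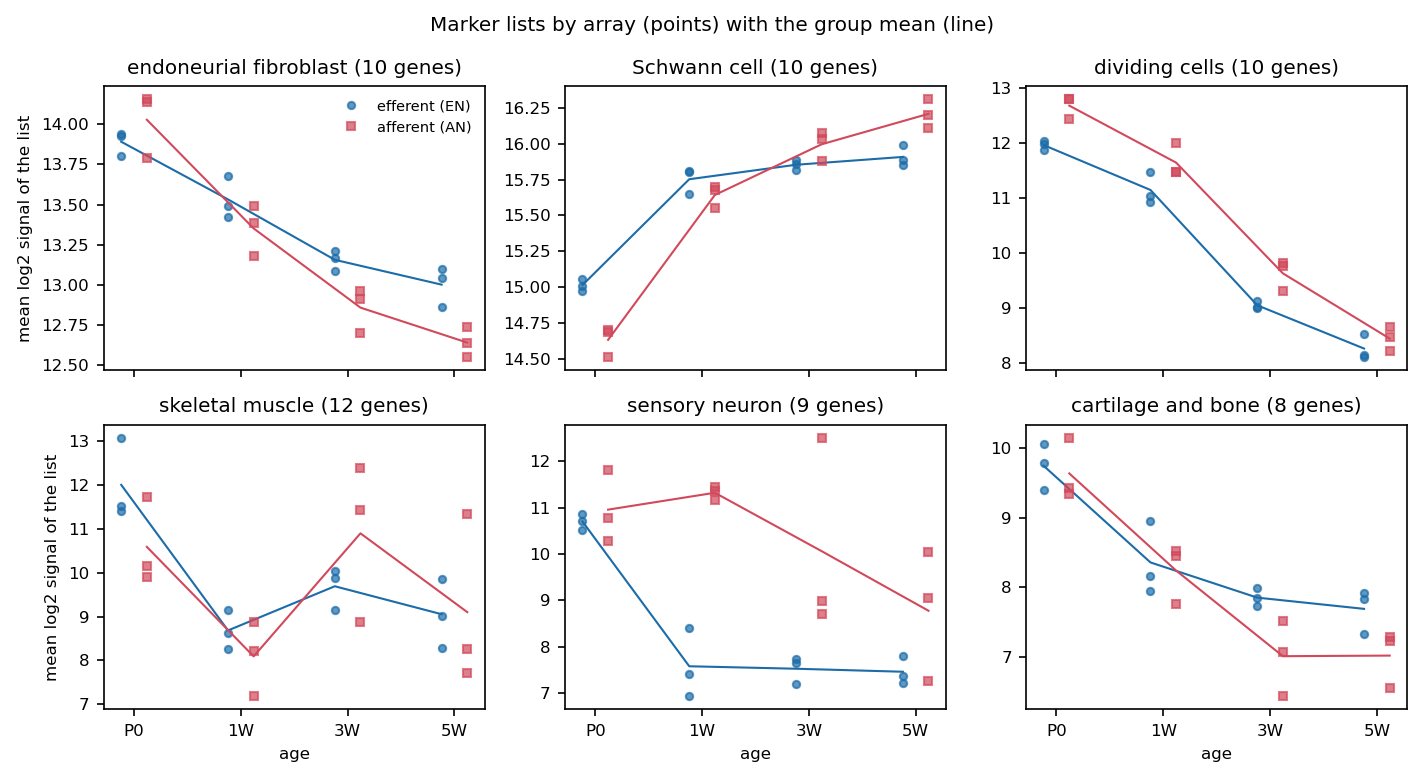
Mean log2 signal of the genes of each marker list (vertical axis) per array against age (horizontal axis) in EN (circles) and AN (squares), with lines through the group means. Dividing cell markers fall from 11.87 or above at P0 to 8.66 or below at 5W, and sensory neuron markers are alike in both roots at P0.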

How the data were processed

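RNA of 24 samples was measured on 24 single-colour Agilent arrays (Cyanine-3). For each array the authors deposited the spot intensity written by Agilent Feature Extraction 10.7.1.1, with marks for spots well above background, and 1 table of log2 values, quantile normalized over all arrays. Quantile normalization gives all arrays the same distribution, so that a change shared by most genes cannot be seen. Each table column matched its own scanner file (lowest r 0.99998). The deposited log2 values were used, and the intensity served for the background marks and as an alternative.

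Of 56605 gene probes, 36409 (64.3%) entered the test, those marked well above background throughout some group of 3 arrays. The 8 group means were fitted with limma 3.58.1 in R 4.3.3 (16 residual and 18.35 total degrees of freedom), and p-values were adjusted after Benjamini and Hochberg over all tested probes. Probes took their symbol from a gene table of GRCm38.p6, by accession for 32994, by name for 10224 and by an older name for 520, and 12867 had none. A gene was read through its brightest probe. A fold against a group with no array above background is a lower bound, taken from the lowest signal above background of each array. Median signals ran from 45.4 to 191 and local backgrounds from 23 to 46, no spot was saturated, and 3 arrays per group limit the precision of every value.

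The 10 genes, the other gene lists and the marker lists were chosen with earlier results of these data known. The genes named are all 10, up to 5 of the most changed called genes of each further list in EN at 5W, and the 5 most like Igf2 and Meg3. Same-numbered AN and EN arrays of 1 age deviated together (r 0.11 to 0.65 in all 12 pairs), so that the fit with these pairs as a block is given where it changes a call. Some further probes and marker genes are not reported here. The alternatives were unadjusted p, no fold limit, other scalings, filters and background corrections, slide and number as blocks, array weights, other probes, single comparisons, each array left out and, added after the data were seen, the pairs and 1W as the start.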

Additional observations from a re-analysis of the deposited data

Results flagged for a closer look

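The AN minus EN difference of Dlk1 changed after birth, tested as an interaction of root and age in limma. On the brightest probe the change from P0 was -1.39 at 3W (adjusted p = 0.03017) and -1.50 at 5W (adjusted p = 0.01324), and on the second probe it was -1.32 (adjusted p = 0.04037) and -1.40 (adjusted p = 0.01858). No other tested probe of the 10 genes passed that test. Groups of 3 arrays are too small for a test of single outlying arrays.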

How the results depend on the processing

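On their brightest probes, all 10 genes were called lower at 5W than at P0 in both roots with any single array left out. The other tested probes of Plagl1 were not called lower with all arrays. The count of members called ranged, over the 24 such fits, from 4 to 8 for EN 1W against P0, 9 to 10 for EN 3W, 6 to 8 for AN 1W, 8 to 10 for AN 3W, 0 to 2 for EN 5W against 3W, 2 to 3 for AN 5W against 3W, 0 to 1 for AN against EN at 1W, 1 to 2 at 5W, and 0 to 1 and 1 to 2 for the change of AN minus EN since P0 at 3W and 5W, and did not vary for the others (10, 4, 1 or 0). For EN 5W against 3W the count was 0 without EN array 2 of 3W, and 2 without AN array 1 of P0, AN array 3 of 3W, AN array 1 or 2 of 5W or EN array 3 of 5W. For AN against EN at 5W it was 2 without AN array 3 or EN array 2 of 5W, and for the change at 5W it was 2 without AN array 3 of 5W.

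For EN 5W against 3W, 1 member became 3 with unadjusted p and with array weights, and 2 with the 75th percentile scaling, the stricter filter, the slide as a random or fixed block and the replicate number as a block. For AN 5W against 3W, 2 became 4 with no fold limit, 5 with array weights and 0 with only the groups compared. For AN against EN at 5W, 1 became 2 with no fold limit, 0 with only the groups compared and 0 with the pair block. The change of AN minus EN at 3W went from 1 to 0 with the 75th percentile scaling, only the groups compared and the pair block, and that at 5W from 1 to 2 with unadjusted p, the slide as a random or fixed block, the replicate number block and the pair block, and to 0 with only the groups compared. Those fits with only the groups compared leave few degrees of freedom. With 1W as the start, 10 and 8 calls at 3W became 4 in EN and 4 in AN. The replicate number as a block, where samples of different ages share only a number, left the counts of the other comparisons within 1.5 times.

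Reversed values were Plagl1 in EN at 3W over the mean of its probes (0.0751 in place of -1.42), 2 probes with the slide as a fixed block (Meg3 A_65_P01584 in AN at 3W, 0.0597, and Igf2 A_55_P2118173 in AN 3W against 1W, -1.08), and, from 1W to 3W, Dlk1 in EN (0.18 and 0.0541 on its probes) and the second Igf2 probe in AN (0.0297). In all, 6261 of 6400 values of single members kept their side of the threshold. Those of them that were called also kept their direction, while the direction of values called in neither fit was not compared. The number of all probes called moved by over 1.5 times in 13 of 17 comparisons with no fold limit, with the normexp correction and with the stricter filter. With 1 array left out it moved as far in 50 combinations of a comparison and a left-out array. The shares of all probes given beside the members therefore hold for all 24 arrays. The lowest counts were 360 for AN against EN at 1W (without EN array 1 of 1W) and 42 at P0 (without AN array 2 of P0), and the 23 probes called for the change at 1W ranged from 4 (without EN array 2 of 1W) to 564 (without AN array 3 of 3W). With the pair block, the 1205 probes called between the roots at 5W became 0, the 1134 of 3W became 334, the 1014 of 1W became 1570 and the 119 of P0 became 0. Starting at 1W, the 10898 probes called in EN at 5W became 4689, and the 10133 in AN became 5008. The causes were not tested.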
